A study of Mus musculus with 9 samples.

Results

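GABA is a small molecule that carries inhibitory signals between neurons, and 8 genes of its synthesis, packaging, breakdown and reception are described here in tumours of a mouse model of synovial sarcoma. The genes are Gad1, Gad2, Abat, Slc32a1, Gabra3, Gabrb2, Gabre and Gabbr1, out of 14440 genes with a probe set of their own, and they were measured by 19 of the 25581 probe sets whose annotation names a single gene. They were picked from the GABA genes with the tumour and muscle values of these same arrays already known, so the difference between tumour and muscle is given for them as a description and carries no test.

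The tested tissue was 5 tumours excised from mice labelled MYF-5 CRE/SSM2, 1 Affymetrix array each, and the tissue set against it was 4 normal skeletal muscles titled wild type. Tumours 1, 2 and 3 carry the labels CC23, CC17-B and CC17-A, and tumours 4 and 5 the labels SSM5 and SSM4. Muscles 1 and 4 came from hind limb, muscle 2 was intercostal and muscle 3 came from forelimb. Synovial sarcoma is a cancer of soft tissue driven by the fusion oncoprotein SYT-SSX. Myf5 is a transcription factor of muscle precursor cells whose gene drives the Cre recombinase in these mice, so recombination depends on the cells in which Myf5 has been active. Age was not given, genotype and tissue differ together between the groups, and no label ties each array to an animal of its own, so an adjusted p here measures the spread between samples. CC17-A and CC17-B share a number and may share a mouse.

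GABA is made from glutamate by the glutamate decarboxylases Gad1 and Gad2 and loaded into synaptic vesicles by the transporter Slc32a1. The transaminase Abat breaks it down in mitochondria. GABA-A receptors are chloride channels built from several subunits, of which Gabra3, Gabrb2 and Gabre are examples, while GABA-B receptors are G protein-coupled receptors in which the Gabbr1 subunit binds GABA. In the nervous system these genes mark inhibitory neurons and the cells that respond to them, and glutamate decarboxylase is also made in some tissues outside it, such as pancreatic islets.

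A level is a scaled intensity, the deposited array signal after each array was brought to a common trimmed mean. The floor of an array is the 40th percentile of its values, from 96.5 to 137 over the 9 arrays, and signals under it were treated as background. Of the 19 probe sets, 7 reached the floor on at least 4 arrays and so entered the fit, and they represent 4 genes, Gad1, Abat, Gabrb2 and Gabbr1. Another 7 lay under the floor on all 9 arrays, namely the only probe set of Gabra3, 3 of 4 for Slc32a1, 2 of 5 for Gabrb2 and 1 of 4 for Gabbr1.

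The stretch upstream of the transcription start is shown for the decarboxylase genes Gad1 and Gad2, the enzymes of GABA synthesis, and for Gabbr1, the receptor subunit that was higher in tumours. The sequences are RefSeq promoter windows of build GRCm38.p6, read 5′ to 3′ on the strand of the gene, and each covers the 250 bases before the start. Capitals mark the E-box CANNTG, the letters bound by basic helix-loop-helix factors such as Myf5, and the Gabbr1 stretch holds none.
Gad1 (chr2:70561879-70562128, plus strand): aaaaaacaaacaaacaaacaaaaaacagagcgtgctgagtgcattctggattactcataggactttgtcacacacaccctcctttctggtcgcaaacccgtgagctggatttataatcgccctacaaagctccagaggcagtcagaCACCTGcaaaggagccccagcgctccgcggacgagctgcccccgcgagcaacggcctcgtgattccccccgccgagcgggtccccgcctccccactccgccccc
Gad2 (chr2:22622077-22622326, plus strand): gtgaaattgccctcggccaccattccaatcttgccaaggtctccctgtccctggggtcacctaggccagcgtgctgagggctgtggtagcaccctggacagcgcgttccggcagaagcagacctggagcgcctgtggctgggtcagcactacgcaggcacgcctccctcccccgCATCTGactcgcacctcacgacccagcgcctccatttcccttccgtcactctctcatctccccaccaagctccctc
Gabbr1 (chr17:37045716-37045965, plus strand): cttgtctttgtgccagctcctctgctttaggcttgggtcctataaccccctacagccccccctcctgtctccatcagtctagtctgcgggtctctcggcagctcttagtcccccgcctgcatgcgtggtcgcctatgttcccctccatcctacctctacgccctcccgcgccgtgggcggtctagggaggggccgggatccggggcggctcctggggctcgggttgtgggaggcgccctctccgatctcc

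Of the 8 genes, 7 had a promoter window in the table. E-boxes were searched on both strands, which for this palindromic pattern is a single search, over windows of 250 bases before to 50 after the start. Gad1 and Gad2 each held 1 E-box and Gabbr1 held 0, where 72.3% of all 32851 windows hold at least 1. The core letters of SOX sites, ACAAAG or ACAATG with their complements CTTTGT and CATTGT, occurred 2 times in Gad1, 0 times in Gad2 and 1 time in Gabbr1, where 28.6% of all windows hold at least 1. No E-box overlapped a SOX core in these 3 windows. The Gad1 window had 21 CpG pairs, that of Gad2 had 14 and that of Gabbr1 had 18, against a median of 7 over all windows. These matches describe letters in a window and not a bound site.

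Gad1 by its brighter probe set had the greatest distance between the groups among the members. By that probe set, though not by its dimmer one, it stood at nearly 1 level in all tumours. By probe set 1416561_at its level was 1557, 1518, 1530, 1337 and 1508 in tumours 1 to 5, against 48.6, 4.01, 14.3 and 43.4 in muscles 1 to 4. Every tumour lay far above its floor and every muscle under it, so the groups did not overlap. The mean was 1490 ± 87.7 in tumours (SD, n = 5), at least 12.7-fold above the floor of the muscle arrays. That bound ran from 12.5-fold to 13.05-fold when any single array was left out. Among the tumours the highest level was 1.16 times the lowest.

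A further Gad1 probe set, 1416562_at, was dim and did not separate the groups. It stood at 27.3, 154, 141, 131 and 254 in tumours 1 to 5, against 43.5, 78.9, 45.5 and 81.9 in muscles 1 to 4. Tumour 1 was under every muscle sample, while the other 4 tumours were above all of them. All muscles were under the floor by this probe set, as by the brighter one. Without tumour 1 the groups did not overlap. That does not settle the disagreement, since tumour 1 was the highest tumour by 1416561_at, at 1557, and the lowest by 1416562_at. Why the 2 probe sets differ in tumour 1 was not tested.

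Gad2, the paralogue that supplies GABA at synapses, stayed close to background. Its level was 221, 48.4, 124, 58.6 and 111 in tumours, against 82.5, 67.0, 36.8 and 104 in muscles. Only tumours 1 and 5 and muscle 4 reached their floors, the groups overlapped, and the probe set was not tested. Its mean was 112 ± 68.6 in tumours (SD, n = 5) and 72.6 ± 28.3 in muscles (SD, n = 4).

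Slc32a1, the vesicular GABA transporter, had 4 probe sets and a single value above a floor. By 1422756_at it was at 128, 34.4, 160, 3.42 and 18.3 in tumours, against 59.4, 25.9, 51.3 and 11.1 in muscles, and only tumour 3 passed its floor. The other 3 probe sets ranged from 3.48 to 80.7 in tumours and from 4.92 to 107 in muscles, under the floor everywhere. Of the 5 tumours, all with Gad1 by 1416561_at far above the floor, 4 had every Slc32a1 probe set under it.

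**Figure D1:**
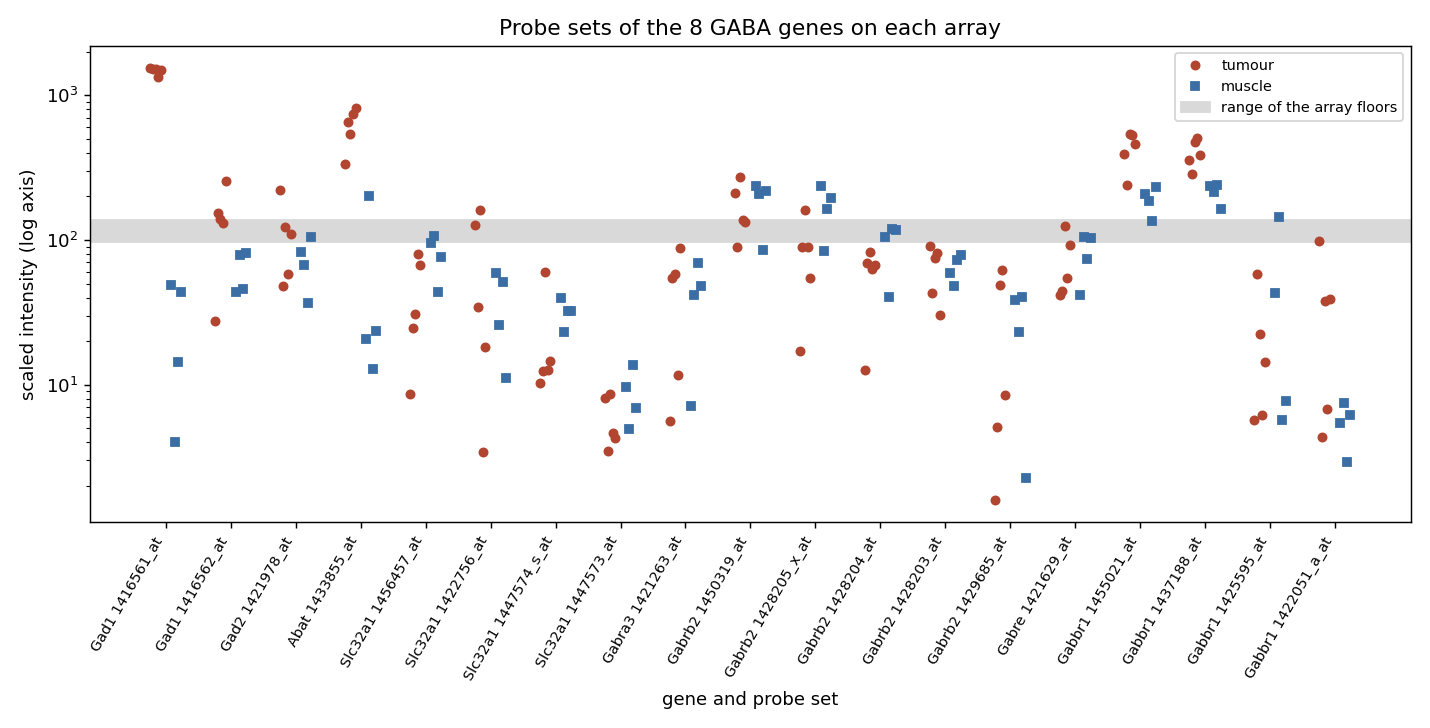
Scaled intensity (log axis) of the 19 probe sets of the 8 genes on each array, tumours as circles left and muscles as squares right at each probe set, with the range of the array floors as a grey band. Gad1 by 1416561_at, Abat and the Gabbr1 probe sets 1455021_at and 1437188_at have every tumour above every muscle, and most of the other probe sets lie at or under the band.

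Abat, which removes GABA, was also higher in every tumour, with more spread than Gad1 had by 1416561_at. Probe set 1433855_at read 337, 654, 542, 744 and 822 in tumours 1 to 5, against 20.7, 202, 12.8 and 23.4 in muscles 1 to 4. All tumours were above the floor, and of the muscles only muscle 2, the intercostal sample, was. The mean was 620 ± 189 in tumours (SD, n = 5) and 64.8 ± 91.8 in muscles (SD, n = 4), or 19.0 ± 5.53 in muscles without muscle 2 (SD, n = 3). The log2 fold change was 3.47, and 4.14 without muscle 2. With values under a floor set to that floor, tumours stood 4.51-fold above muscles, or at least 5.29-fold without muscle 2.

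Muscle 2 stood above the other muscles in S100b and in the fibroblast sum, but not in the Schwann cell sum. S100b, from the Schwann cell list and picked after its values were seen, was at 1243 in muscle 2 and at 194 to 223 in the other muscles. The 5 measured fibroblast markers summed to 52602 in muscle 2 and to 35558 to 46492 in the other muscles. Among these, muscle 2 was the highest muscle for Lum and Col1a1 but not for Dcn, Col1a2 or Pdgfra. The 5 measured Schwann cell markers summed to 6429 in muscle 2 and to 4691 to 6992 in the other muscles. For Mbp, Pmp22, Sox10 and Mag, the Schwann cell markers other than S100b, muscle 2 lay within the range of the other muscles. The part of these cell types in the Abat level of muscle 2 was not tested.

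Gabbr1, the GABA-binding subunit of the GABA-B receptor, was measured above the floor in both tissues by 2 of its 4 probe sets. By 1455021_at it stood at 392, 241, 539, 533 and 462 in tumours 1 to 5, against 207, 185, 135 and 232 in muscles 1 to 4. The lowest tumour, tumour 2, was just above the highest muscle, muscle 4. By 1437188_at it stood at 357, 287, 476, 510 and 385 in tumours, against 235, 215, 241 and 163 in muscles. Tumour 2 was again the lowest tumour and again above all muscles. The log2 fold changes were 1.10 and 0.85, with a spread within groups of 0.40 and 0.29 (pooled SD of log2 levels). With arrays centred on their median or 75th percentile, or quantile normalized, 1455021_at overlapped between the groups and 1437188_at did not.

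The other Gabbr1 probe sets were at background. Probe set 1425595_at ranged from 5.66 to 57.9 in tumours and from 5.69 to 145 in muscles, with muscle 2 the only array above its floor. Probe set 1422051_a_at ranged from 4.32 to 97.9 in tumours and from 2.92 to 7.48 in muscles, all under the floor.

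**Figure D2:**
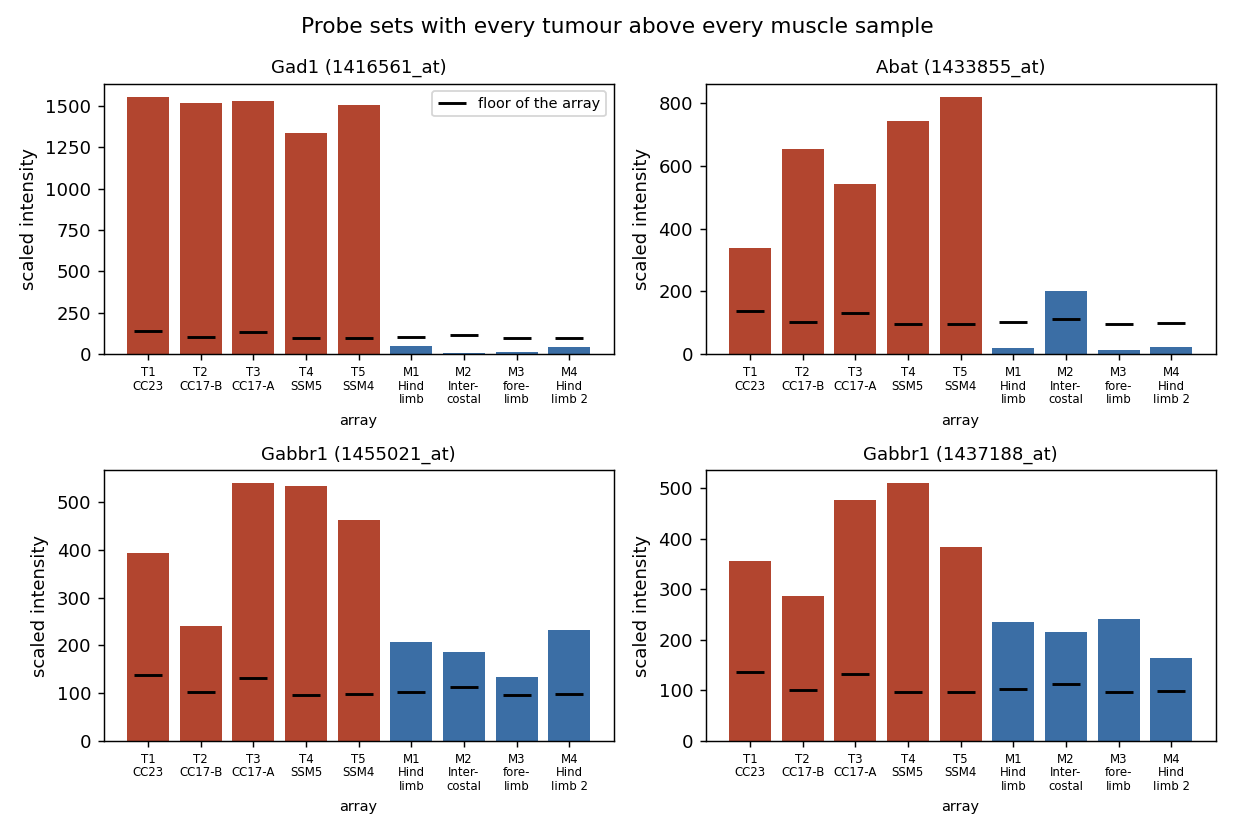
Scaled intensity of Gad1 (by 1416561_at), Abat and Gabbr1 (by 2 probe sets) on each array, tumours T1 to T5 left and muscles M1 to M4 right, with a black line at the floor of each array. Gad1 is near 1500 in all tumours and under the floor in all muscles, Abat ranges from 337 to 822 in tumours with muscle 2 at 202, and Gabbr1 is above the floor in both tissues.

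The GABA-A subunits of the set were dim in both tissues, and none was higher in every tumour. Gabrb2, a beta subunit, had 5 probe sets, of which 2 entered the fit. By 1450319_at it was at 213, 90.1, 274, 137 and 134 in tumours, against 235, 209, 85.3 and 220 in muscles, and the groups overlapped. By 1428205_x_at it was at 17.2, 89.7, 161, 89.5 and 54.3 in tumours, against 237, 84.5, 164 and 196 in muscles. Here muscles 1, 3 and 4 were above every tumour and muscle 2 was not, and without muscle 2 the groups did not overlap. The other 3 Gabrb2 probe sets ranged from 1.59 to 90.4 in tumours and from 2.27 to 118 in muscles, and only muscles 1, 3 and 4 passed a floor, by 1428204_at.

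Gabra3, an alpha subunit, was at 5.63, 54.4, 58.5, 11.7 and 88.5 in tumours, against 7.09, 41.7, 69.3 and 47.9 in muscles, under the floor throughout. Gabre, the epsilon subunit, was at 42.0, 44.3, 125, 54.5 and 92.4 in tumours, against 41.5, 104, 73.5 and 103 in muscles. Its only value above a floor was in muscle 4. No fold change is given for Gabra3, Gabre, Gad2 or Slc32a1, since most of their values were under the floor.

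Counted over the 7 member probe sets that entered the fit, 4 had every tumour above every muscle and 0 had every tumour below, while 21.7% of all 17433 probe sets tested had every tumour above and 14.5% every tumour below. In the limma fit of the same contrast 42.2% of all probe sets were called, 25.7% higher and 16.5% lower. The choice of the genes used this contrast, and a probe set that is dim in muscle enters the fit only through its tumours, so nothing is read from that count. In bulk tissue, fewer cells of a kind and less RNA per cell cannot be told apart.

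A comparison that the choice of genes did not use is that of the tumours labelled CC with those labelled SSM, 3 against 2, fitted by limma over all 17433 probe sets with the muscles sharing the estimate of spread. No member probe set was called, 0 of 7 at an adjusted p under 0.05, where 6.80% of all probe sets were called. At an unadjusted p under 0.05 there were also 0 of 7, where 24.4% of all probe sets passed. Gad1 by 1416561_at averaged 1535 ± 19.8 in CC tumours (SD, n = 3) and 1422 ± 121 in SSM tumours (SD, n = 2), a log2 difference of 0.11 (SE 0.46, limma adjusted p = 0.910). Abat averaged 511 ± 161 in CC tumours (SD, n = 3) and 783 ± 54.9 in SSM tumours (SD, n = 2), a log2 difference of −0.65 (SE 0.73, limma adjusted p = 0.632). For Gabbr1 the log2 differences were −0.40 (SE 0.37) by 1455021_at and −0.27 (SE 0.32) by 1437188_at. Over the 7 probe sets the limma adjusted p ran from 0.417 to 0.993. For Gad1 and Abat this spread includes muscle values under the floor, so the fit was repeated on the 5 tumours alone, a choice made after seeing the data. The SE was then 0.26 for Gad1 by 1416561_at (limma adjusted p = 0.837) and 0.35 for Abat (limma adjusted p = 0.336). In that fit 0 of 7 were called, where 398 of all 17433 probe sets were. At an unadjusted p under 0.05 there were 0 of 7, where 21.0% of all probe sets passed. With so few probe sets and tumours, these counts do not show that the members are alike in CC and SSM tumours.

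The genes most like Gad1 by 1416561_at over the 9 arrays were Bmp7, a secreted growth factor of the BMP family, Mdk, the growth factor midkine, Scube3, a secreted EGF-domain protein, and Nt5dc2. Likeness was the root mean square difference between log2 levels, each centred on its own mean over the 9 arrays, among 10645 other genes. It was 0.32 for Bmp7, 0.39 for Mdk, 0.47 for Scube3 and 0.52 for Nt5dc2, where the median gene was at 2.59. All of them share a large gap between tumour and muscle, which was known when Gad1 was chosen, so nothing is read from the likeness. Bmp7 stood at 1089, 1118, 1434, 1681 and 1301 in tumours, against 48.1, 4.98, 29.0 and 46.7 in muscles, so it too had all muscles under the floor. Because the muscle values of Gad1 have no order under the floor, the measure was repeated with such values set to the floor, which was chosen after seeing the data. Bmp7 and Nt5dc2 remained, and Prmt8, a protein arginine methyltransferase, and Cadm1, a cell adhesion molecule, came in. Prmt8 was then the closest, at 0.14, with 1546, 1200, 1352, 1215 and 1703 in tumours, against at most 35.5 in muscles.

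The genes most like Abat were Triqk, Csrp2, a LIM-domain protein, Crtap, a collagen-modifying protein, and C1qtnf3, at 0.36, 0.45, 0.54 and 0.55, where the median gene was at 1.88. C1qtnf3 was at 920, 1590, 1143, 2208 and 1289 in tumours, against 34.9, 945, 21.1 and 95.1 in muscles. Muscle 2 was the highest muscle for all 4 of these genes, as it was for Abat. The genes were picked for likeness on arrays that include muscle 2, so nothing is read from this. With values under a floor set to the floor, 0 of these 4 genes remained among the closest 4, which were then Lmo4, Ddx41, Gnpda2 and Sri.

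The wider pathway was described by 80 genes outside the 8, in 8 lists, of which 55 had a probe set of their own here and 32 were tested by their brightest probe set. By limma at an adjusted p under 0.05, 11 of the 32 rose (34.4%), 6 fell (18.8%) and 15 did not pass, and their median log2 fold change was 0.29. Over the brightest probe sets of all 10646 genes tested, 29.0% were higher and 17.4% lower, and their median was 0.23. Both shares lay near those of genes in general at this scaling. With arrays centred on the 75th percentile 11 of the 32 were again higher, while higher calls over all 17433 probe sets went from 4473 to 3273.

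Receptor subunits and transporters of GABA other than the 8 genes were not detected in number. Of 16 other GABA-A subunit genes 9 had a probe set, 0 were tested, 6 lay under the floor on every array and 8 lay under it in every tumour. The summed level of these 9 was 207 to 537 in tumours and 166 to 690 in muscles. Of the 4 plasma membrane GABA transporters, Slc6a11, Slc6a12 and Slc6a13 had a probe set, and 0 were tested. Their summed level was 28.1 to 290 in tumours and 38.3 to 273 in muscles.

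Of 9 partners of the GABA-B receptor 4 were tested, with 1 higher, 0 lower and 3 not called, and a median log2 fold change of 0.19. The one called was Kctd12b, of the KCTD family whose members bind GABA-B receptors, at 593 ± 154 in tumours (SD, n = 5) and 284 ± 19.0 in muscles (SD, n = 4). Its log2 fold change was 0.98 (SE 0.23, limma adjusted p = 0.00557), and its further tested probe set was not called. The potassium channel genes Kcnj3 and Kcnj6, whose channels open downstream of GABA-B receptors, had log2 fold changes of −0.20 and 0.58 and were not called. Gabbr2, the partner subunit that GABA-B receptors need to signal, was not analysed here.

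Among genes of GABA breakdown and of other routes to GABA, 2 of 6 were tested, with 0 higher, 1 lower and 1 not called, and a median of −0.78. Maob, a mitochondrial monoamine oxidase that takes part in making GABA from putrescine, was at 71.2, 320, 138, 353 and 484 in tumours, against 1197, 2293, 1503 and 1108 in muscles. All tumours were below all muscles, with a log2 fold change of −2.61 (SE 0.47, limma adjusted p = 0.00113). Aldh9a1, an aldehyde dehydrogenase of the same route, had a log2 fold change of 1.05 and was not called (limma adjusted p = 0.0731).

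Genes that supply glutamate and glutamine had 5 of 9 tested, with 0 higher, 2 lower and 3 not called, and a median of −0.78. Glul, glutamine synthetase, which uses up glutamate, averaged 3804 ± 1418 in tumours (SD, n = 5) and 24691 ± 4056 in muscles (SD, n = 4), a log2 fold change of −2.78 (SE 0.32, limma adjusted p = 6.0e-05). Its other tested probe set was also called lower. Slc38a2, a transporter of glutamine and other amino acids, fell by 0.78 on the log2 scale (limma adjusted p = 0.0105), a call lost with quantile normalization (−0.46, limma adjusted p = 0.0715), and its 2 other tested probe sets were not called. Glud1, glutamate dehydrogenase, had a log2 fold change of −0.45 and was not called.

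Of 13 genes that anchor or traffic GABA-A receptors 9 were tested, with 1 higher, 2 lower and 6 not called, and a median of 0.10. Nlgn2, an adhesion protein of inhibitory synapses, was at 1667, 1173, 1741, 1691 and 1494 in tumours, against 340, 310, 194 and 350 in muscles. The groups lay well apart, with a log2 fold change of 2.34 (SE 0.23, limma adjusted p = 2.4e-05), but its other tested probe set was not called. Gphn, the scaffold protein gephyrin, fell by 1.36 on the log2 scale (limma adjusted p = 0.00150), and its 2 other tested probe sets were also lower. Gabarapl2, of the GABARAP family that also serves autophagy, fell by 1.19 (limma adjusted p = 0.0106), a call lost when ribosomal and proteasome genes set the scale (−0.91, limma adjusted p = 0.0767).

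Of 5 cation-chloride cotransporters, which set the chloride gradient that GABA-A channels use, 4 were tested, with 3 higher, 0 lower and 1 not called, and a median of 1.23. Over all genes tested 29.0% were higher and 17.4% lower, and with 4 genes nothing is read from the count. The 3 were all exporters of potassium and chloride. Slc12a7 averaged 646 ± 197 in tumours (SD, n = 5) and 117 ± 54.2 in muscles (SD, n = 4), a log2 fold change of 2.36 (SE 0.33, limma adjusted p = 0.000228). Slc12a5, the exporter known from neurons, was at 364, 209, 398, 352 and 388 in tumours, against 209, 119, 83.9 and 95.4 in muscles. Tumour 2 was level with muscle 1 at 209, and the log2 fold change was 1.37 (limma adjusted p = 0.00436). Muscles 3 and 4 were under the floor for Slc12a5, and muscle 4 for Slc12a7, so these p-values rest partly on background values. Slc12a4 rose by 1.09 (limma adjusted p = 0.0116). Slc12a2, the importer, had a log2 fold change of −0.70 and was not called by its brightest probe set, while 1 of its 2 other tested probe sets was called lower.

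Of 18 transcription factors known from GABA neurons 8 were tested, with 6 higher, 1 lower and 1 not called, where 29.0% of all genes tested were higher. Of the 6, 3 had every muscle under the floor and so entered the fit only through the tumours, where they were high, and nothing is read from the count or from the list's median of 2.52. Lhx1 was at 879, 799, 1136, 530 and 543 in tumours, against 11.3, 6.30, 43.3 and 3.66 in muscles, at least 6.42-fold higher. Dlx1 was at 424, 916, 435, 257 and 386 in tumours, against 2.87 to 5.51 in muscles, at least 3.86-fold higher. All muscles were under the floor for both genes, so a p would rest on background values in muscle and is not given.

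Dlx5 rose by 3.27 on the log2 scale (limma adjusted p = 0.000843). Dlx2 averaged 429 ± 207 in tumours (SD, n = 5) and 48.5 ± 50.5 in muscles (SD, n = 4), also higher (limma adjusted p = 0.00146). Only muscles 2 and 3 reached their floors for Dlx5, and only muscle 4 for Dlx2. Both p-values thus rest partly on background values in muscle. Many of these factors also act outside the nervous system. Dlx genes pattern limb and face skeleton, and Lhx1 acts in kidney and early embryo. Lbx1, which also marks migrating limb muscle precursors, was the member that fell, at 181 ± 54.3 in tumours (SD, n = 5) and 743 ± 381 in muscles (SD, n = 4), where muscle 2 was at 192 and the others at 787 to 1021, with a log2 fold change of −1.75 (limma adjusted p = 0.00894). Lhx6, a factor of cortical interneurons, was not called at 0.22.

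**Figure D3:**
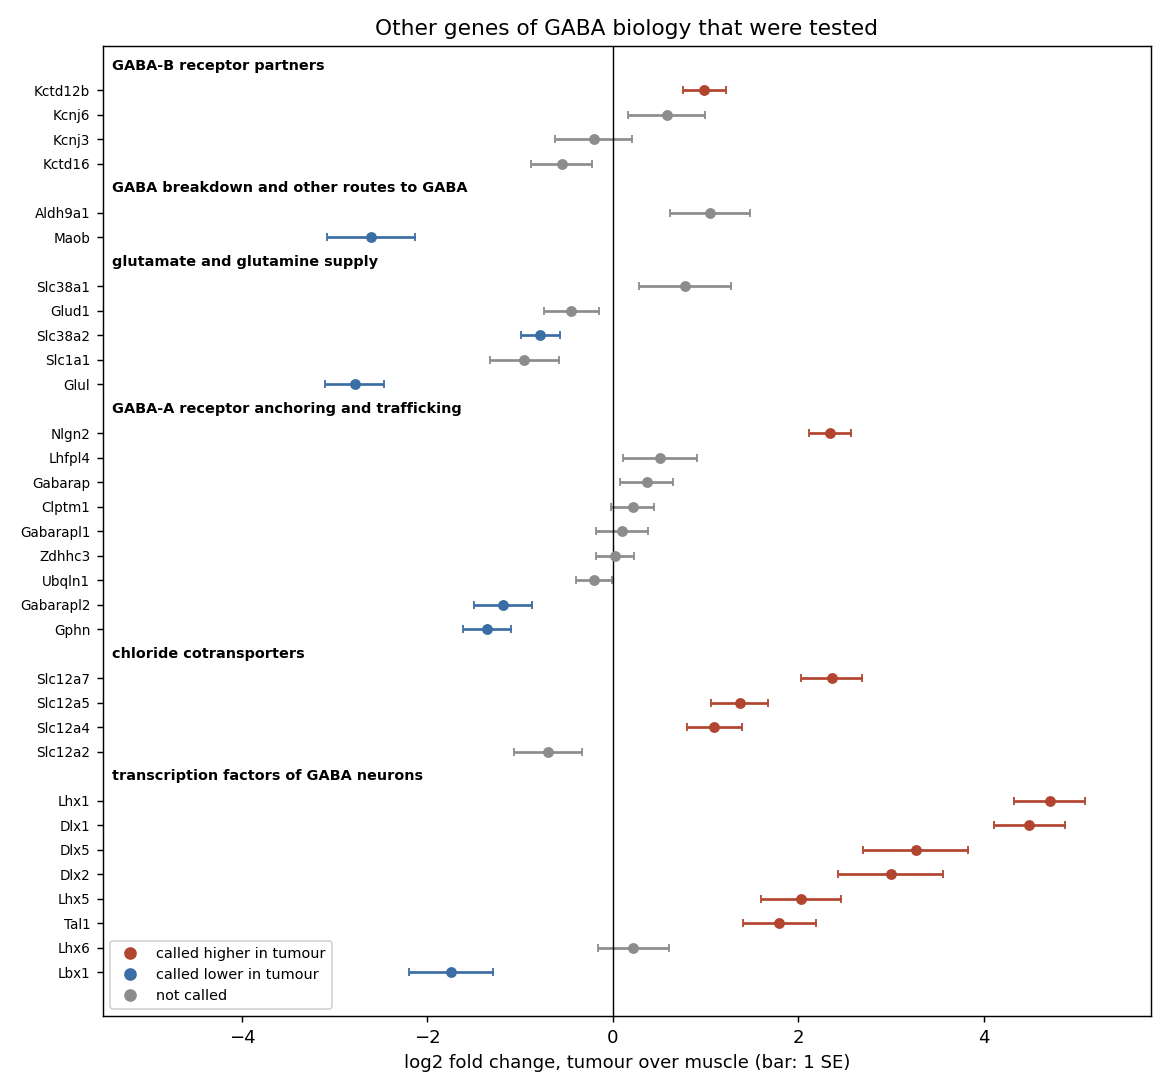
Log2 fold change, tumour over muscle, of the 32 tested genes of GABA biology outside the 8, grouped by list, with bars of 1 SE and colours for the limma call. Of the 8 transcription factors 6 are called higher and 1 lower, and of the 4 chloride cotransporters 3 are called higher and 0 lower. Over all genes tested 29.0% are higher and 17.4% lower, and nothing is read from these counts.

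The sum of neuron markers was higher in every tumour than in every muscle, but of the single markers only Stmn2 and Syp were. Of 13 neuron markers 12 had a probe set and 3 were tested, with 2 higher, Stmn2 and Syp, 0 lower and 1 not called, Syt1. Rbfox3, a splicing factor of mature neurons, and 3 neurofilament genes, Nefl, Nefm and Nefh, lay under the floor in all 5 tumours. Of the other untested markers, Gap43, a growth cone protein, reached the floor in 3 tumours and 0 muscles, at 340, 465 and 837 in tumours 1 to 3. Tubb3 and Dcx reached it in 2 tumours and 0 muscles, Elavl4 in 2 tumours and 1 muscle, and Snap25 in 1 tumour and 0 muscles. The summed level of the list was 2726, 2166, 9799, 2135 and 2015 in tumours 1 to 5, against 781, 798, 894 and 1087 in muscles. Stmn2 was the largest part of it in every tumour, at 1273, 893, 3546, 991 and 1144, against 177, 343, 335 and 351 in muscles. Syp was at 369, 214, 803, 632 and 533 in tumours, against 111, 120, 124 and 77.8 in muscles. A sum without these 2 genes was not made. Tumour 3 stood apart from the other tumours in the sum of the whole list. Its Gad1 level of 1530 by 1416561_at lay within their range of 1337 to 1557. Without tumour 3, Gad1 by this probe set was at least 12.6-fold higher than the floor of the muscle arrays. The other tumours also had neuron sums above every muscle, so leaving out tumour 3 does not bear on neuron content. The part of neurons in the Gad1 level was not tested.

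Markers of GABA interneurons varied between the tumours. Of 6 such genes 2 were tested, with 1 higher, the peptide gene Sst, 0 lower and 1 not called, Npy. Every muscle was under the floor for Sst, which so entered the fit only through the tumours, and nothing is read from its call. Sst was at 1277, 723, 1609, 120 and 1327 in tumours, against 83.8, 51.1, 94.1 and 17.1 in muscles. Tumour 4 was the lowest tumour for Sst, as it was for Gad1 by 1416561_at. Calb2, a calcium-binding protein, was at 4114 in tumour 3 and at 9.51 to 73.7 in the other tumours. The summed level of the list was 374 to 6483 in tumours and 280 to 578 in muscles.

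Muscle transcripts varied far more between tumours than Gad1 did by 1416561_at. Of 11 measured skeletal muscle markers 10 fell, 0 rose and Myh1 did not pass, and their sum was 121569, 40036, 7159, 452 and 137005 in tumours 1 to 5, against 483970 to 633124 in muscles. Tumour 4, with the least muscle signal, had the lowest Gad1 level by 1416561_at and the second highest Abat level. Tumour 5, with the most muscle signal, had the highest Abat level. Of the other marker lists, 5 tested Schwann cell genes gave 0 higher and 1 lower, and 6 tested endothelial genes 0 higher and 2 lower. The 4 tested macrophage genes gave 1 higher and 0 lower, and the 5 tested fibroblast genes 2 higher and 1 lower. The higher macrophage gene was Aif1, with every muscle under the floor, so nothing is read from its call. The macrophage sum was 1190 to 4890 in tumours and 1524 to 2073 in muscles, and the endothelial sum 1427 to 2740 in tumours and 2904 to 3691 in muscles. The fibroblast sum was 25601 to 100488 in tumours and 35558 to 52602 in muscles, and the Schwann cell sum 3648 to 10763 in tumours and 4691 to 6992 in muscles. The part of these cell types in the levels of the 8 genes was not tested.

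**Figure D4:**
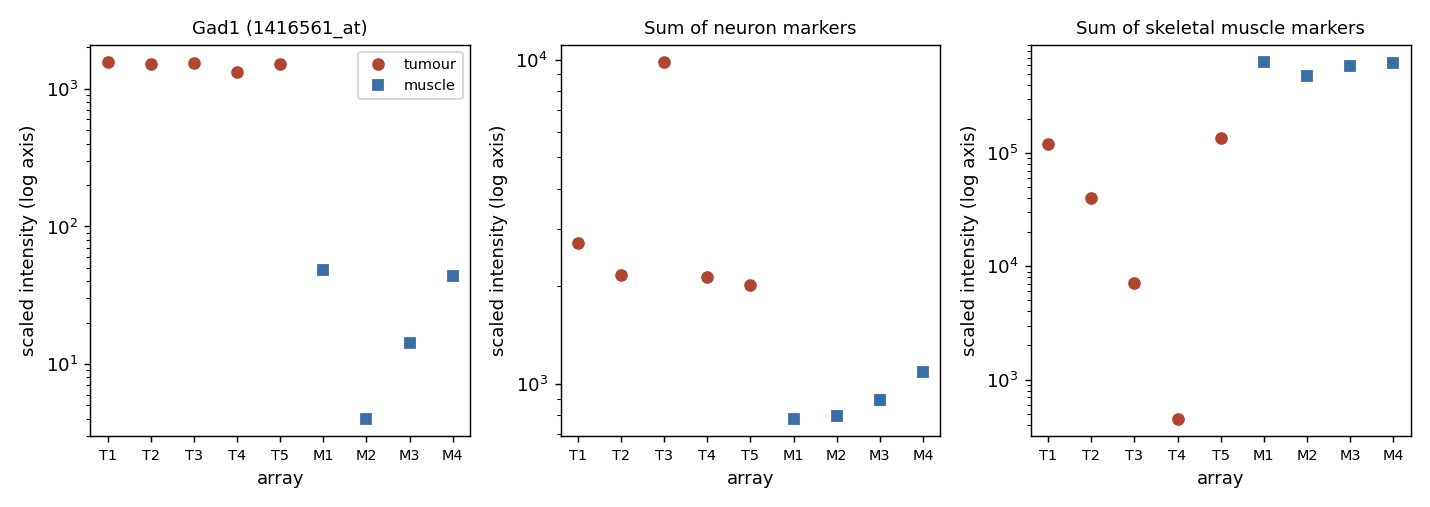
Scaled intensity (log axis) on each array of Gad1 by 1416561_at, of the sum of 12 neuron markers and of the sum of 11 skeletal muscle markers, tumours T1 to T5 as circles left and muscles M1 to M4 as squares right. Gad1 is nearly level over the tumours, while the neuron sum is highest in tumour 3 at 9799 and the muscle sum runs from 452 in tumour 4 to 137005 in tumour 5.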

How the data were processed

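Total RNA of 5 tumours and 4 muscles was measured on 1 Affymetrix array each. Per the submitters' processing notes the values come from MAS5, and its version, background step and scaling target are not given in the sources used here. The deposited values are probe set intensities on a linear scale with no detection calls. Probe sets were named through the platform annotation, and the 7 controls, 496 probe sets with several genes and 4424 with none were left out. The 2% trimmed means of the arrays differed by 41.8%, over the 10% allowed, so arrays were scaled to their common mean. Probe sets at or above the floor on at least 4 arrays, 17433 in all, were compared by limma 3.58.1 in R 4.3.3 on log2(scaled value + 16) with eBayes allowing the variance to follow intensity. Tests were two-sided and p-values were adjusted by Benjamini-Hochberg. Precision is limited by the small number of arrays. The fit was tested on simulated data.

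The 8 genes, the gene lists and the tests were chosen with earlier results of these data known. Named were every member probe set, called genes of each list up to the 4 largest changes in each direction, and the 4 genes most like Gad1 and like members spanning at least 2 log2 units. For Gad2, Slc32a1 and Gabra3, which met that span only with values near or under the floor, such genes are not given. Genes named as not called and markers named beyond 4 a list were chosen after their values were seen. Other settings tried were scalings, pseudocounts, filters, choices of probe set, fits and arrays left out.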

Additional observations from a re-analysis of the deposited data

Results flagged for a closer look

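The screen took 72 groups of values, 1 in each tissue for each member probe set and each called pathway gene. Of these, 7 had a sample far from the others of its group by Dixon's test, where chance flags about 1 in 20 groups. Marker genes, such as Calb2 and S100b, and genes not called were not screened. Gad1 by 1416561_at was at 1337 in tumour 4 and at 1508 to 1557 in the other tumours. Abat was at 202 in muscle 2 and at 12.8 to 23.4 in the other muscles. Kctd12b was at 313 in muscle 2 and at 273 to 278 in the other muscles. Tumour 2 was apart for Slc12a5, at 209 against 352 to 398 in the other tumours, and for Dlx1, at 916 against 257 to 435. Under the floor, where values were treated as background, Slc32a1 by 1447574_s_at was at 60.2 in tumour 3 and at 10.3 to 14.5 in the other tumours, and Gabrb2 by 1428204_at was at 12.6 in tumour 1 and at 63.3 to 82.7 in the other tumours.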

How the results depend on the processing

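No paired analysis was possible because the labels give the groups no shared replicate numbers. The CC17 pair as a random block could not be fitted, since limma gave no estimate of its correlation. The count of probe sets called between tumour and muscle, 7358, ran from 5862 to 7823 with 1 array left out and was 9106 with array weights. The median log2 fold change over all probe sets tested, called or not, was 0.18. It was 0.06 on the values as deposited, −0.0024 centred on the median, 0.03 quantile normalized, −0.07 centred on the 75th percentile and 0.46 scaled on ribosomal and proteasome genes. Higher calls were 4473 of the 7358, and 3273 of 7170 centred on the 75th percentile, 3375 of 6769 centred on the median, 3507 of 6559 as deposited, 3693 of 7067 quantile normalized and 5660 of 7579 scaled on ribosomal and proteasome genes. The count of member probe sets with every tumour above every muscle, 4, was 3 to 5 over all settings, and without tumours 1 and 4 Gad1 left it because too few arrays then reached the floor. The count with every tumour below, 0, was 1 without muscle 2, by Gabrb2 1428205_x_at. Called pathway genes were 8 to 14 higher and 4 to 7 lower, and none turned direction. The 1186 calls between CC and SSM tumours were 611 with the brightest probe set per gene, 1805 with array weights, 233 without tumours 1 and 4, 398 with the 5 tumours only (added after seeing the data), and 191 to 1776 with 1 array left out, lowest without tumour 4. Member probe sets called in that comparison were 0 in every setting. The log2 fold change of Abat, which had 3 of 4 muscles under the floor, ran from 2.57 to 4.14 over the settings.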
